A study of Mus musculus with 42 samples.

Results

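The 10 genes described here carry peptides from the cytosol onto major histocompatibility complex (MHC) class I molecules: Tap1, Tap2, Tapbp, Tapbpl, Psmb8, Psmb9, Psmb10, Nlrc5, B2m and Erap1. They were picked by symbol from the 46603 Ensembl genes of the deposited count table, and all 10 were found and passed the filter on low counts in every comparison. Their symbols and coordinates are those of GENCODE M21, an annotation of the GRCm38 build. The members were chosen by pathway and not by a threshold on their values.

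Bulk RNA was sequenced from sorted CD4 T cells of 2 kinds, the regulatory (Treg) and the conventional (Tconv). They came from the ileum and its mesenteric lymph node, and from the synovium of the ankle and its draining popliteal and inguinal lymph nodes (joint nodes). TNFdARE mice, which carry a Tnf allele without the AU-rich element that destabilises its transcript, were compared with wild-type (WT) littermates. Mice of both genotypes carried DEREG, a reporter that places green fluorescent protein under the control of Foxp3, and no treatment, age or number of animals per library is given by the labels. The sort thus rested on the reporter, which can be off in cells that transcribe Foxp3. The work was done in 3 independent experiments, A, B and C, with 42 libraries over 16 combinations of genotype, site and cell type. Of these groups, 11 held 3 libraries and 4 held 2: TNFdARE mesenteric Treg, TNFdARE mesenteric Tconv, TNFdARE synovial Tconv and WT synovial Treg. WT synovial Tconv was a single library, so each comparison that needs it rests on 1 WT value.

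Total counts lay between 18261064 and 30301202 per library and genes detected between 13341 and 31454. The 2 highest gene numbers belonged to joint-node Tconv libraries, WT C with 31454 and TNFdARE B with 29599. The lowest belonged to WT synovial Treg A with 13341 and WT ileal Treg C with 14712. Synovial Treg libraries ranged from 13341 to 20171 genes and joint-node Treg libraries from 18982 to 19801. In ileal Treg the range was 14712 to 20887 in WT and 17401 to 20636 in TNFdARE. The part of these gene numbers in the results was not tested. Foxp3, the transcription factor that defines Treg, was at 566 to 1650 CPM (counts scaled to library size) in Treg libraries. In the libraries labelled Tconv it was at 115 to 200 CPM in the TNFdARE ileum against 13.4 to 18.5 CPM in WT, and at 615 and 619 CPM in the TNFdARE synovium against 31.1 CPM in WT. In node Tconv it was at 21.4 and 36.6 CPM in TNFdARE against 6.17 to 7.11 CPM in WT (mesenteric) and at 30.3 to 39 CPM against 6.29 to 7.73 CPM (joint nodes). The TNFdARE Tconv libraries of all 4 sites thus carried more Foxp3 RNA than their WT controls (log2 fold change 2.10 to 4.34, all 4 called), and its part in the Tconv results was not tested. The CD4 T cell markers were found in every group, with summed levels of 2310 to 5170 CPM. Cd4 itself was at 292 and 341 CPM in WT synovial Treg, against 674 to 766 CPM in TNFdARE. Synovial Tconv had it at 305 CPM in the WT library and at 740 and 822 CPM in TNFdARE. What this difference in Cd4 does to the synovial values was not tested. In bulk RNA, fewer cells of a type and less RNA per cell cannot be told apart.

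Nearly all nucleated cells show fragments of their own proteins on MHC class I. The immunoproteasome, in which the catalytic subunits encoded by Psmb8, Psmb9 and Psmb10 replace those of Psmb5, Psmb6 and Psmb7, cuts proteins into peptides, and the transporter formed by TAP1 and TAP2 pumps these into the endoplasmic reticulum. There tapasin (Tapbp) holds an empty class I molecule at the transporter, TAPBPR (Tapbpl) edits the peptide, ERAP1 trims its amino end, and beta-2-microglobulin (B2m) is the light chain of the finished molecule. NLRC5 is the transactivator of class I genes, and interferon-gamma is the classical inducer of the set. T cells express the pathway as most blood cells do.

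Of the members, 5 lie in the MHC on chromosome 17. They are Psmb9 (chr17:34181987-34187764, minus strand), Tap1 (chr17:34187553-34197225), Psmb8 (chr17:34197721-34201454), Tap2 (chr17:34203527-34216321) and Tapbp (chr17:33915899-33929292), the last 4 on the plus strand. Their starts are 996 kb (Tap2), 1002 kb (Psmb8), 1012 kb (Tap1), 1017 kb (Psmb9) and 1283 kb (Tapbp) from that of Tnf, the gene altered in TNFdARE mice. Psmb10 (chr8:105935735-105938444, minus strand), Nlrc5 (chr8:94434356-94527272), B2m (chr2:122147686-122153083), Erap1 (chr13:74639568-74693201) and Tapbpl (chr6:125223933-125231860, minus strand) lie elsewhere. Tap1 and Psmb9 are read away from each other, and their annotated exons share 212 bases on opposite strands, 3.9% of the exon bases of Tap1 and 5.8% of those of Psmb9. Erap1 shares 834 exonic bases, 11.5% of its own, with Cast on the other strand. Whether the authors' counting used strand is not given in the sources used here, so reads from these shared bases cannot be told apart.

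RefSeq promoter windows, from 250 bases before to 50 bases after the start on GRCm38.p6, were given for 7 of the 10 members. They were searched on both strands for the interferon-stimulated response element GAAANNGAAA, the gamma-activated sequence TTCNNNGAA and the NF-kB motif, because the set is known to answer interferons and TNF. The stretches that hold a match are shown 5′ to 3′ on the plus strand with the match in capitals. For B2m the stretch is chr2:122147533-122147585, which lies in an intron of Patl2 and holds the interferon element and then the NF-kB motif. For Erap1 it is chr13:74639841-74639866 across the start site, with the interferon element read on the minus strand. For Psmb8 it is chr17:34198090-34198114 and holds the gamma-activated sequence.
B2m: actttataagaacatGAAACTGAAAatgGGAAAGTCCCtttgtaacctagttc
Erap1: accttcacTTTCACTTTCggtcccgg
Psmb8: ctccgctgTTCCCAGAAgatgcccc
The first base of each match is at −139 and −126 (B2m), −4 (Erap1) and −97 (Psmb8) from the start. The motifs do not overlap each other in these stretches. Of 32851 promoter windows of the same length, 3.44% held the interferon-stimulated response element, 8.3% the gamma-activated sequence and 4.51% the NF-kB motif. The windows of Tap1, Tapbp, Psmb9 and Psmb10 held none of these letters. The windows follow RefSeq starts, which can differ from the GENCODE starts given above. That of Tapbp (chr17:33919228-33919527) lies inside the GENCODE gene, and the Psmb8 stretch lies in an annotated Psmb8 exon. The search thus does not cover the promoter at each GENCODE start. The RefSeq starts of Tap1 and Psmb9 are 226 bases apart, and their windows share 275 bases, so this pair is read from 1 stretch of DNA in opposite directions.

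Per kilobase of annotated exon, B2m was by far the most abundant member, with a median over the 16 group means of 5260 CPM per kb. Tapbp followed at 197 CPM per kb, Psmb8 at 81.9, Tap2 at 75.3, Tap1 at 75, Psmb10 at 65, Psmb9 at 57.5, Tapbpl at 52.4, Nlrc5 at 30.5 and Erap1 at 22.9. The gene that varied most between groups was Psmb10, whose highest group mean was 5.95 times its lowest. The ratio was 3.13 for Nlrc5, 2.91 for Tapbpl, 2.64 for Psmb9 and between 1.77 (Tap2) and 2.16 (Tap1) for the other 6. All further CPM values are per gene and not per length, and are used to compare groups.

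For 4 members, Tap1, Tap2, Tapbpl and B2m, the highest of all 16 group means was that of TNFdARE ileal Treg. Tap1 reached 563 ± 31.8 CPM there (SD, n = 3), next to WT Treg of the joint nodes (547 ± 31.6) and of the mesenteric node (534 ± 66.1), from which it did not differ beyond the spread. Its next level was 447 ± 6.23 CPM in TNFdARE mesenteric Treg, and 6 groups followed between 384.5 and 435 CPM. WT ileal Treg (365 ± 6.91), WT synovial Tconv (354.5 in 1 library), TNFdARE ileal Tconv (343 ± 19.9), TNFdARE synovial Tconv (291 ± 16), WT ileal Tconv (276 ± 14.9) and TNFdARE synovial Treg (260.1 ± 27.9) closed the order. Averaged over z-scored members, TNFdARE ileal Treg was the highest group (1.01) and TNFdARE synovial Treg the lowest (−1.41), with WT Treg of ileum (−0.72) and synovium (−1.05) between them. The 8 node groups lay between 0.32 and 0.82 on this scale.

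**Figure D1:**
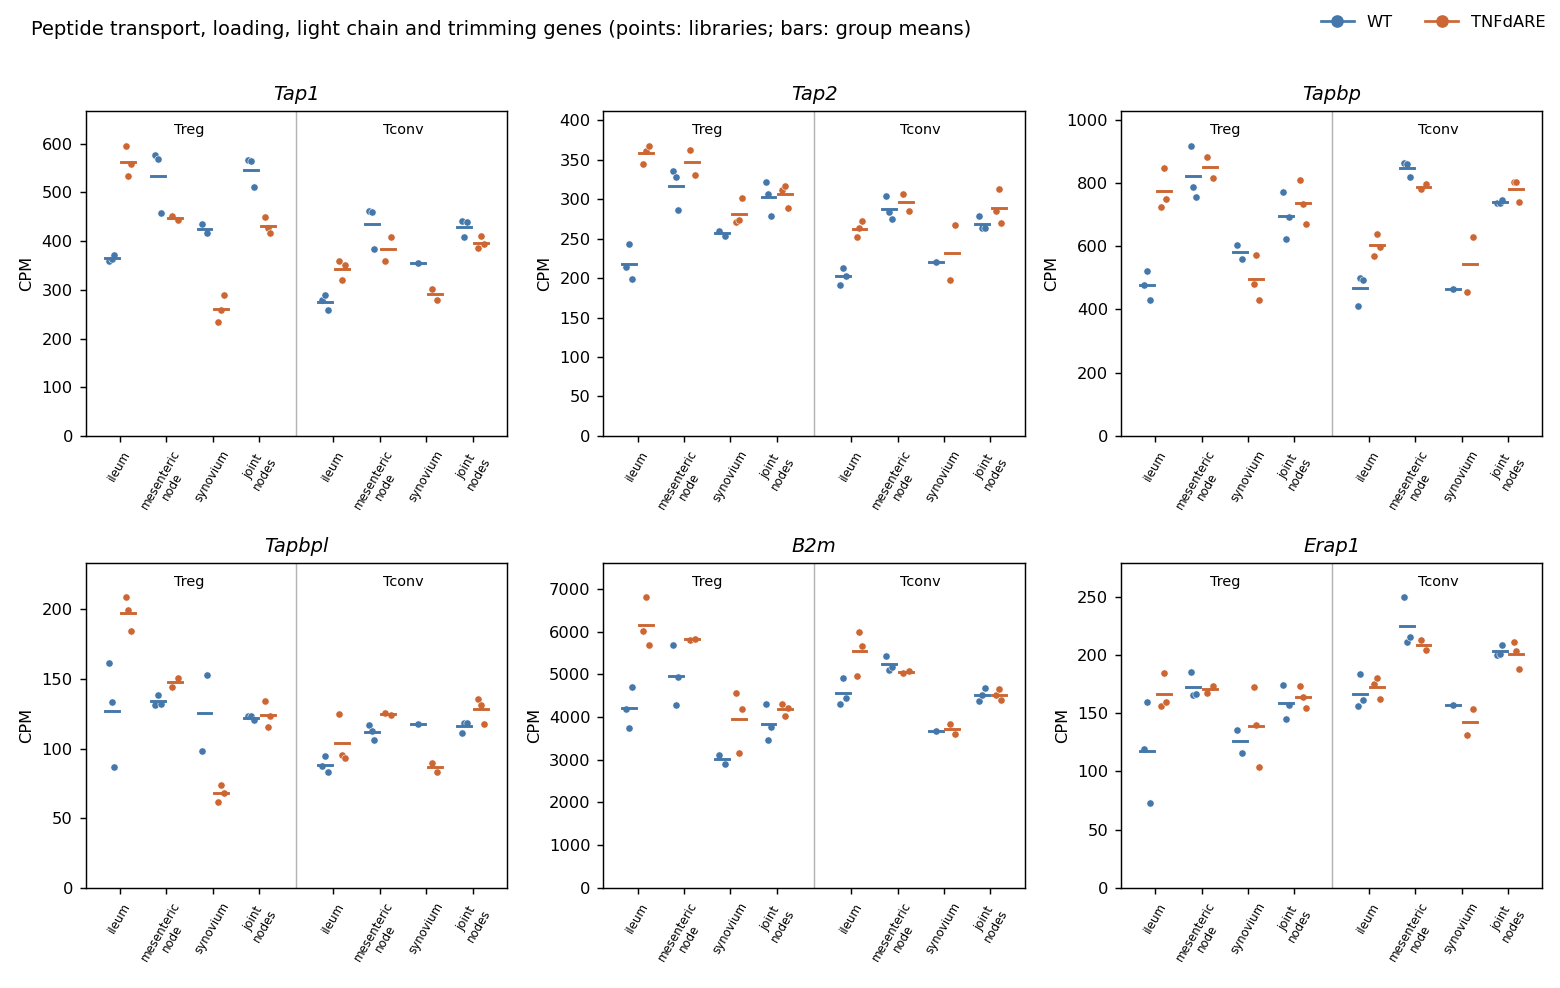
CPM of Tap1, Tap2, Tapbp, Tapbpl, B2m and Erap1 in all 42 libraries by cell type, site and genotype (points are libraries, bars are group means, axes start at 0). In ileal Treg the TNFdARE libraries of Tap1 (533 to 596 CPM) sit above those of WT (358 to 372), while in synovial Treg they sit below them.

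In ileal Treg both transporter genes, Tap1 and Tap2, and the tapasin gene Tapbp rose in TNFdARE mice. These 3 of 10 members passed the test and none was called lower, against 0.484% of all 15916 tested genes that were called higher. Tap1 was at 596, 533 and 559 CPM in TNFdARE experiments A, B and C and at 358, 363 and 372 CPM in WT. All 3 TNFdARE libraries lay far above the WT libraries, which were close to each other. Tap1 rose 1.51-fold (log2 fold change 0.60 ± 0.09 SE, adjusted p = 0.011, edgeR). Tap2, its partner in the transporter, was at 345, 361 and 368 CPM against 214, 243 and 199 CPM. It rose 1.61-fold (0.69 ± 0.09, adjusted p = 0.0063), again with no overlap. Tapbp, the bridge between transporter and class I, was at 725, 848 and 749 CPM against 477, 521 and 430.4 CPM. Its 1.6-fold rise (0.68 ± 0.11, adjusted p = 0.019) placed every TNFdARE library above every WT library.

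The other 7 members missed the threshold in ileal Treg, with positive fold changes. Psmb8, the subunit that replaces Psmb5, was at 229.7, 332 and 266 CPM in TNFdARE and 155, 157 and 196 CPM in WT (log2 fold change 0.67 ± 0.18, adjusted p = 0.14). Psmb10 was at 105, 127 and 97.3 CPM against 54.7, 64.2 and 81.1 CPM (0.68 ± 0.20, adjusted p = 0.18). Neither subunit overlapped between genotypes, although their fold changes were as large as those of the genes that passed. Psmb9 was at 253, 247 and 223 CPM against 199.9, 151 and 197 CPM (0.36 ± 0.13, adjusted p = 0.28). Tapbpl, the peptide editor, was at 209, 199.6 and 184 CPM against 162, 134 and 86.4 CPM (0.61 ± 0.19, adjusted p = 0.19). The WT library of experiment C was low for Tapbpl, and it was also the lowest for Erap1, which trims peptides. Erap1 was at 156, 184 and 159.9 CPM in TNFdARE and at 119, 159.7 and 73.0 CPM in WT (0.50 ± 0.20, adjusted p = 0.32), and its groups overlapped. B2m, the light chain, was at 6010, 6804 and 5685 CPM against 4190, 3747 and 4703 CPM (0.52 ± 0.13, adjusted p = 0.12) without overlap. Nlrc5 was at 305, 342 and 385 CPM against 253, 305 and 255 CPM (0.32 ± 0.15, adjusted p = 0.38) with overlap. The TNFdARE libraries lay above all WT libraries for 8 of 10 members, against 8.23% of all genes tested. The median log2 fold change of the members was 0.60, against 0 over all genes, and all 10 had an unadjusted p below 0.05.

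Without the WT library of experiment A the calls of Tap1 (adjusted p = 0.058) and Tapbp (0.066) were lost and 1 of the 3 was left, Tap2; Tapbp was also lost without TNFdARE B (0.085) or WT C (0.072). With only the 2 ileal Treg groups in the fit none was called (adjusted p = 0.25, 0.2 and 0.25 for Tap1, Tap2 and Tapbp), and limma voom called none (0.069, 0.051 and 0.11). The dendritic cell markers, of which 2 of 4 stayed below 1 CPM in every library of these groups, summed to 52.6 to 123 CPM in TNFdARE ileal Treg and 12 to 26.2 CPM in WT. The 5 plasma cell markers, none at 0 in all libraries, summed to 277 to 10900 CPM and 558 to 3360 CPM. Without both experiment A ileal Treg libraries the log2 fold changes were 0.58 (Tap1, adjusted p = 0.086), 0.74 (Tap2, 0.033) and 0.76 (Tapbp, 0.057). The dendritic cell marker sum was also higher in TNFdARE Treg of the mesenteric node (11.6 to 12.6 against 4.34 to 5.62 CPM) and of the joint nodes (16.5 to 25.1 against 4.61 to 7.61 CPM). In synovial Treg it overlapped between genotypes. The part of these markers in the ileal Treg result was not tested.

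In ileal Tconv the same genes had positive fold changes of smaller size and none passed the edgeR test, against 1.31% of all genes called in either direction. Tap1 was at 358, 320.4 and 350.2 CPM in TNFdARE and 279, 289 and 259 CPM in WT (log2 fold change 0.33 ± 0.09, adjusted p = 0.13). Tap2 was at 252, 264 and 272 CPM against 191, 213 and 203 CPM (0.39 ± 0.09, adjusted p = 0.063), and with the experiment as a replicate block it passed (adjusted p = 0.038). Tapbp was at 569.9, 638 and 598 CPM against 409, 498 and 492 CPM (0.38 ± 0.11, adjusted p = 0.18). None of these groups overlapped, and with Psmb9 and B2m 5 of 10 members had all TNFdARE libraries above all WT libraries, against 10.5% of all genes. For B2m the log2 fold change was 0.30 ± 0.13 (adjusted p = 0.63), for Psmb9 0.29 ± 0.13 (0.69), for Psmb8 0.42 ± 0.18 (0.58), for Psmb10 0.33 ± 0.20 (0.91) and for Tapbpl 0.25 ± 0.19 (1). Nlrc5 (0.04 ± 0.15) and Erap1 (0.06 ± 0.20) had the smallest values. The median of the members was 0.31, against −0.02 over all genes. At an unadjusted p below 0.05 there were 5 members, while DESeq2 called 3 and limma voom 4. The 4 dendritic cell markers, with 1 at 0 in all libraries of a group in each genotype, summed to 21.2 to 41.6 CPM in TNFdARE and 6.46 to 13.1 CPM in WT, and their part was not tested.

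In synovial Treg the members did not share a direction. No member passed the edgeR test, against 0.156% of all genes, with 2 members at an unadjusted p below 0.05, 2 called by DESeq2 and 0 by limma voom. Tap1 was at 233, 258 and 289 CPM in TNFdARE and at 435 and 416 CPM in WT (log2 fold change −0.69 ± 0.17, adjusted p = 0.24). The 3 TNFdARE libraries lay well below both WT libraries. Tapbpl was at 61.8, 73.6 and 68.1 CPM against 98.0 and 153 CPM (−0.87 ± 0.25, adjusted p = 0.33). Psmb10 was at 47.4, 25.6 and 16.2 CPM against 52.8 and 59.2 CPM (−0.88 ± 0.46, adjusted p = 0.54), without overlap but with a wide range among the TNFdARE libraries. B2m was at 4563, 3151 and 4184 CPM against 3122 and 2901 CPM (0.42 ± 0.21, adjusted p = 0.53), with the lowest TNFdARE library just above the higher WT library. Tap2 was at 271, 274 and 301 CPM against 260.3 and 253 CPM (0.16 ± 0.19), and thus did not go the way of Tap1. Tapbp (−0.21 ± 0.21), Psmb8 (0.02 ± 0.27), Psmb9 (0.01 ± 0.28), Nlrc5 (0.36 ± 0.36) and Erap1 (0.17 ± 0.26) overlapped between genotypes. The members' median was 0.01, against 0.12 over all genes. The 5 fibroblast markers, none at 0 in all libraries, summed to 13000 and 16000 CPM in the WT libraries and 1440 to 6100 CPM in TNFdARE. The 6 myeloid markers, 1 of them at 0 in both WT libraries, summed to 3.16 and 299 CPM in WT and 0.0461 to 7.04 CPM in TNFdARE. Foxp3 was at 1170 and 566 CPM in WT A and B and at 1350 to 1470 CPM in TNFdARE. The part of these differences in the synovial Treg values was not tested.

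In synovial Tconv no member passed, against 0.512% of all genes, with 1 member at an unadjusted p below 0.05 and 0 called by DESeq2 and by limma voom. Psmb9 was at 115.3 and 115 CPM in the TNFdARE libraries and 216 CPM in the single WT library (log2 fold change −0.88 ± 0.37, adjusted p = 0.57). Psmb10 was at 48.6 and 46.8 CPM against 91.0 CPM (−0.91 ± 0.60, adjusted p = 0.81) and Nlrc5 at 149.5 and 135 CPM against 261 CPM (−0.85 ± 0.46, adjusted p = 0.75). Tap1 was at 303 and 279.9 CPM against 354.5 CPM (−0.26 ± 0.22). The other 6 members had log2 fold changes between −0.42 (Tapbpl) and 0.25 (Tapbp), and the median of the 10 was −0.25 against 0.24 over all genes. In that WT library the 5 CD8 T or NK cell markers, none of them at 0, summed to 931 CPM, against 32.8 and 86.1 CPM in TNFdARE. Its 6 myeloid markers, 1 at 0, summed to 150 CPM against 9.23 and 11 CPM. The part of these cells in the synovial Tconv values was not tested.

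**Figure D2:**
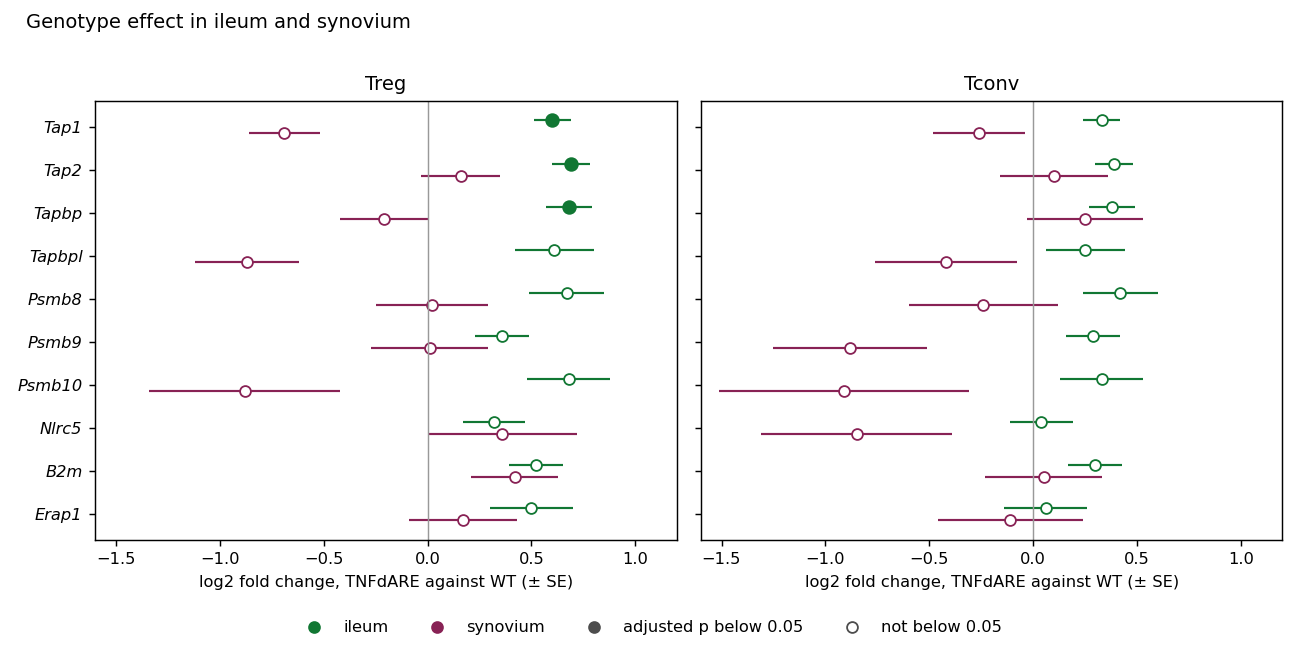
Log2 fold change of TNFdARE against WT (points, with bars of 1 SE) for each member in ileum and synovium, with Treg on the left and Tconv on the right. Filled points passed at adjusted p below 0.05 and are Tap1, Tap2 and Tapbp in ileal Treg; Tap1 has opposite signs at the 2 sites in Treg (0.60 and −0.69).

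Whether the genotype effect differed between ileum and synovium was tested as an interaction. In Treg, Tap1 differed by 1.33 ± 0.18 on the log2 scale, a 2.52-fold larger TNFdARE-to-WT ratio in ileum (adjusted p = 0.042), and it was the 1 member that passed, against 0.0117% of all genes called in this direction. The experiment as a replicate block ended the call (adjusted p = 0.12), as did 10 of the 11 omissions of a single library (up to 0.2); only without WT synovial Treg B was it kept. Psmb10 (1.62 ± 0.52, adjusted p = 0.48), Tapbpl (1.52 ± 0.35, 0.25) and Tapbp (0.94 ± 0.19, 0.2) missed the threshold with large differences. The differences were 0.70 ± 0.31 for Psmb8, 0.58 ± 0.17 for Tap2, 0.40 ± 0.33 for Psmb9, 0.38 ± 0.40 for Erap1, 0.14 ± 0.27 for B2m and 0.00 ± 0.41 for Nlrc5. The members' median was 0.64, against −0.09 over all genes, and 6 had an unadjusted p below 0.05.

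In Tconv 3 members passed the interaction test, against 2.78% of all genes called in this direction. They were Psmb9 (1.24 ± 0.18, adjusted p = 0.0048), Psmb10 (1.30 ± 0.30, 0.029) and Tap1 (0.65 ± 0.16, 0.04), with ratios 2.36-fold, 2.47-fold and 1.57-fold larger in ileum. With the replicate block Psmb8 (0.98, adjusted p = 0.01) and Nlrc5 (0.80, adjusted p = 0.027) passed as well, and the count was 5. Each of these differences uses the single WT synovial Tconv library with its high CD8 T or NK cell markers, and there is no value without it. The spread of that lone library is taken from the other groups, and none of the omissions run can touch it, so they bear only on the other 3 groups. Psmb9 kept its call in those 8 omissions. Tap1 lost it in 6 of 8, each of the ileal ones, with adjusted p up to 0.09, and Psmb10 lost it without TNFdARE ileal Tconv B or C (up to 0.068). The count was 5 without TNFdARE synovial Tconv B and 1 without TNFdARE ileal Tconv C.

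In the lymph nodes Nlrc5, the transactivator, fell in TNFdARE Treg at both sites, as did Tap1 in the joint nodes. In the mesenteric node it was at 232 and 271 CPM in TNFdARE B and C and at 355, 364 and 364 CPM in WT (log2 fold change −0.47 ± 0.10, adjusted p = 0.022). It was the 1 member called there, against 1.84% of all genes called lower, and with the replicate block B2m passed too, in the other direction (0.36, adjusted p = 0.033). In the joint nodes Nlrc5 was at 243, 272 and 269 CPM against 314, 358 and 423 CPM (−0.49 ± 0.10, adjusted p = 0.011). In the same cells Tap1 fell from 566, 564 and 510.2 CPM to 449.6, 426 and 416 CPM (−0.35 ± 0.07, adjusted p = 0.007). These 2 of 10 members stand against 2.34% of all genes called lower in joint-node Treg. Neither gene overlapped between genotypes in joint-node Treg. Tap1 kept its call in all 12 omissions of a library. Nlrc5 lost it without TNFdARE joint-node Treg A or WT joint-node Treg C (adjusted p up to 0.083), which left 1 member called, and 4 were called without WT joint-node Treg A. In the mesenteric node the Nlrc5 call was lost without TNFdARE B, WT B or WT C of Treg (up to 0.19), and 2 members were called without WT A.

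The immunoproteasome subunits and B2m gave small differences in node Treg. For Psmb9 the log2 fold change was −0.25 ± 0.08 (adjusted p = 0.1) in the mesenteric node and −0.16 ± 0.06 (0.15) in the joint nodes, with no overlap at either site. B2m had 0.28 ± 0.10 (0.14) in the mesenteric node and 0.12 ± 0.07 (0.35) in the joint nodes. Tap1 in mesenteric Treg was at 452 and 443 CPM against 577, 568 and 458 CPM (−0.20 ± 0.12, adjusted p = 0.4). In node Tconv edgeR, DESeq2 and limma voom each called 0 members, against 2.36% of all genes in the mesenteric node and 2.79% in the joint nodes. Unadjusted, 2 members were below 0.05 in the mesenteric node, Nlrc5 (−0.28 ± 0.10) and Psmb9 (−0.21 ± 0.08), and 1 in the joint nodes, Psmb10 (0.19 ± 0.08). The medians of the members were 0.04 and 0.03 in mesenteric and joint-node Treg and −0.10 and 0.05 in Tconv.

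**Figure D3:**
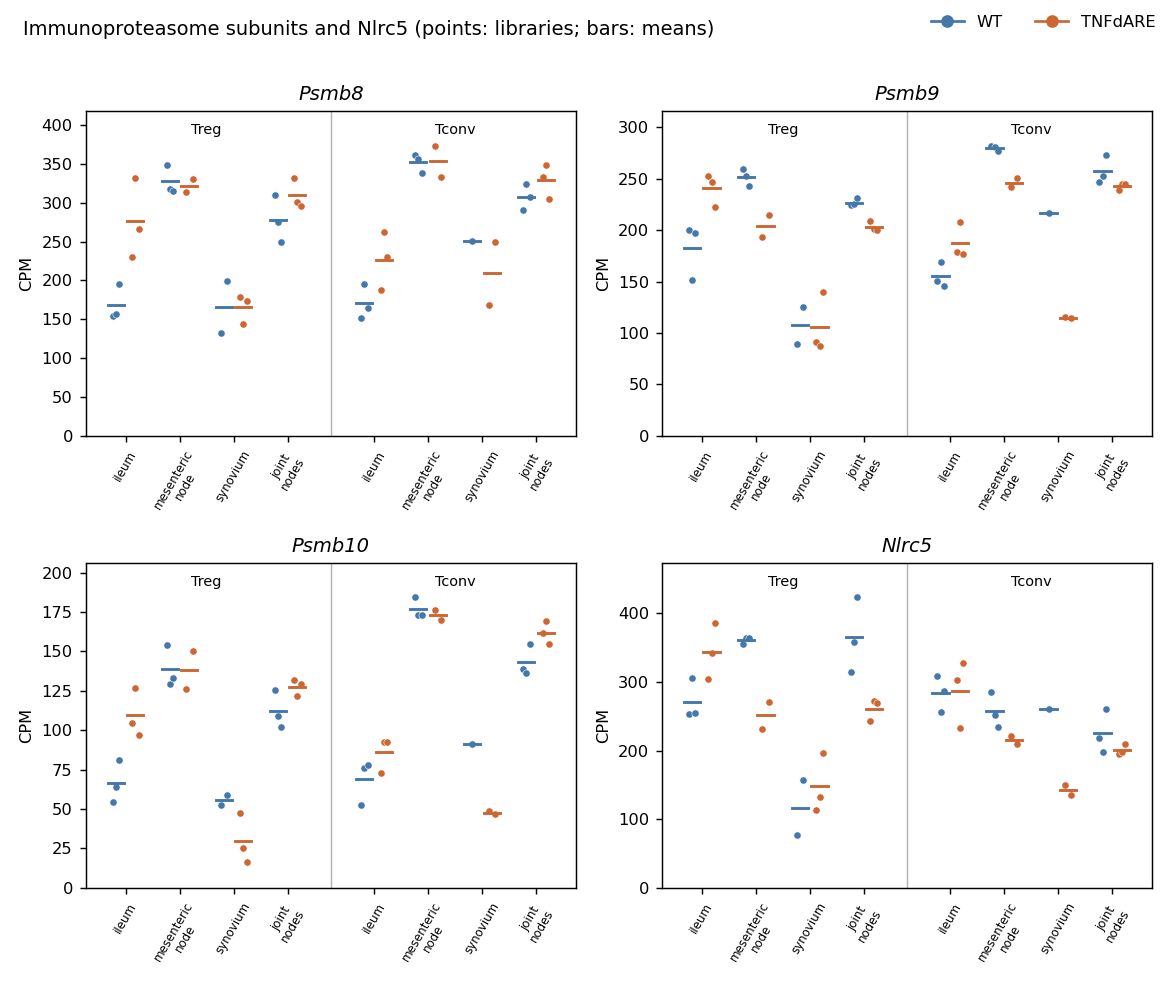
CPM of Psmb8, Psmb9, Psmb10 and Nlrc5 in all 42 libraries by cell type, site and genotype (points are libraries, bars are group means, axes start at 0). Psmb10 lies at 173 to 184 CPM in WT mesenteric Tconv and at 16.2 to 47.4 CPM in TNFdARE synovial Treg, and Nlrc5 is lower in TNFdARE than in WT node Treg.

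Treg and Tconv were compared at each site, averaged over both genotypes. In the ileum Treg had more Tap1 (log2 difference 0.57 ± 0.06, adjusted p = 0.00012), Tapbpl (0.73 ± 0.13, 0.0037) and Tap2 (0.29 ± 0.06, 0.0099), 3 of 10 members against 7.93% of all genes called higher. For Tap2 the average hides a difference between genotypes. Its means were 218.6 CPM in Treg and 202.4 CPM in Tconv of WT, whose libraries overlapped, and 358.3 and 262.6 CPM in TNFdARE. Psmb9 (0.31 ± 0.09, 0.052) missed the threshold, and Tapbp (0.20 ± 0.08, 0.11) passed with the replicate block (0.046). The Tap2 call was lost without WT ileal Tconv A (0.057), and 5 members were called without WT ileal Treg B. In the joint nodes Treg had more Nlrc5 (0.55 ± 0.07, adjusted p = 2.1e-05) and Tap1 (0.25 ± 0.05, 0.00065). They had less Psmb10 (−0.33 ± 0.06, 0.00019), Erap1 (−0.31 ± 0.06, 0.00057), Psmb9 (−0.20 ± 0.04, 0.0013) and B2m (−0.16 ± 0.05, 0.012). The mesenteric node gave Nlrc5 (0.36 ± 0.07, 0.002), Tapbpl (0.26 ± 0.05, 0.0027) and Tap1 (0.26 ± 0.08, 0.028) higher in Treg and Erap1 (−0.33 ± 0.07, 0.0024), Psmb10 (−0.34 ± 0.08, 0.0038) and Psmb9 (−0.21 ± 0.06, 0.011) lower. Both nodes thus had 6 of 10 members called, but 43.2% of all genes in the joint nodes and 38.6% in the mesenteric node were called as well. Tap2 passed in both nodes with the replicate block (0.012 in the mesenteric and 0.0097 in the joint nodes). The mesenteric call of Tap1 was lost in 6 of 10 omissions of a library (up to 0.12).

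In the synovium no member differed between Treg and Tconv by the edgeR test, against 1.1% of all genes, with 1 member at an unadjusted p below 0.05 and 0 called by DESeq2 and by limma voom. The log2 differences ran from −0.73 ± 0.38 for Psmb10 to 0.20 ± 0.16 for Tap2. The high Foxp3 of the TNFdARE synovial Tconv libraries stands beside these values.

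Averaged over both genotypes, Psmb8, Psmb10 and the tapasin gene Tapbp were called lower in tissue T cells than in those of the draining node in all 4 comparisons. Psmb10 had the largest difference of the members in each. It was 2.96-fold lower in synovial than joint-node Treg (log2 difference −1.57 ± 0.25, adjusted p = 0.00096) and 2.28-fold lower in Tconv (−1.19 ± 0.07, 4e-06). In ileum it was 1.62-fold below the mesenteric node in Treg (−0.70 ± 0.13, 0.0038) and 2.27-fold in Tconv (−1.18 ± 0.11, 1.6e-06). Psmb8 was lower by −0.84 ± 0.12 (0.00065) in synovial Treg and −0.59 ± 0.12 (0.0063) in ileal Treg, and Psmb9 by −1.03 ± 0.14 (0.00042) in synovial Treg, while in ileal Treg Psmb9 (−0.11 ± 0.10, 0.4) did not pass.

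In synovial Treg 7 of 10 members were lower than in the joint nodes, against 18.5% of all genes. Beside the 3 subunits these were Nlrc5 (−1.25 ± 0.20, adjusted p = 0.0012), Tap1 (−0.56 ± 0.08, 0.00041), Tapbp (−0.43 ± 0.10, 0.0076) and Tapbpl (−0.44 ± 0.12, 0.015). With the replicate block Erap1 passed (−0.36, 0.039). Tapbpl was not lower in WT, at 125.5 CPM in synovial against 122.3 CPM in joint-node Treg. In TNFdARE it was at 67.79 against 124.3 CPM. The 5 fibroblast markers summed to 1440 to 16000 CPM in synovial Treg and 0.736 to 3.25 CPM in joint-node Treg, where 1 of 5 was at 0 in all WT libraries. In Tconv the sums were 240 to 1880 CPM and 0 to 7.56 CPM. Their part in the synovial values was not tested. In Tconv, Tapbpl was at 117.7 CPM in the single WT synovial library against 115.8 CPM in the WT joint nodes. In TNFdARE Tconv it was at 86.55 against 128.4 CPM. Nlrc5 in Tconv went opposite ways, at 260.9 against 225.9 CPM in WT and at 142.2 against 201 CPM in TNFdARE. In synovial Tconv 8 members were lower, against 18.4% of all genes. Psmb9 (−0.65 ± 0.07, 9.8e-05), Tapbp (−0.58 ± 0.11, 0.0032) and B2m (−0.27 ± 0.06, 0.0061) were among them, and Nlrc5 (−0.12 ± 0.09, 0.28) and Tap2 (−0.28 ± 0.11, 0.076) were not. The Tapbpl call was lost in 4 of 8 omissions (up to 0.094) and that of Psmb8 without TNFdARE joint-node Tconv A (0.054). With a term for the sample-sheet pass (sheet numbers up to 32 against those from 33) 4 members remained called, Tap1 (0.017), Psmb9 (0.0026), Psmb10 (0.00017) and B2m (0.0067).

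In ileal Treg 4 members were lower than in the mesenteric node, against 12.2% of all genes. These were Psmb10, Psmb8, Tapbp (−0.46 ± 0.09, adjusted p = 0.0047) and Tap2 (−0.25 ± 0.08, 0.037). The average over genotypes hides a difference between them for Tap2. It was at 218.6 CPM in ileal against 316.8 CPM in mesenteric Treg of WT, and at 358.3 against 347 CPM in TNFdARE. Psmb10, Psmb8 and Tapbp had lower ileal means in both genotypes. Tap1, which was not called, was at 364.7 against 534.3 CPM in WT and at 562.8 against 447.2 CPM in TNFdARE. The Tap2 call was lost in 9 of 11 omissions (up to 0.15) and with the replicate block (0.052). The 5 plasma cell markers summed to 277 to 10900 CPM in ileal Treg and 3.13 to 26.3 CPM in mesenteric Treg, and the fibroblast markers to 15.4 to 2190 CPM and 0.941 to 2.17 CPM. In Tconv the plasma cell sums were 132 to 438 CPM and 0.839 to 35.9 CPM, and the fibroblast sums 3.03 to 292 CPM and 0.0424 to 0.739 CPM. The part of these markers in the ileal values was not tested. In ileal Tconv 9 members passed, 8 lower and Nlrc5 higher (0.28 ± 0.10, 0.025), but 61% of all genes were called in that comparison. Nlrc5 lost its call in 4 of 11 omissions (up to 0.094). B2m was the member that did not pass (−0.03 ± 0.06, 0.66). Nlrc5 and the subunits therefore had opposite signs in ileal Tconv, and the same sign in synovial Treg.

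**Figure D4:**
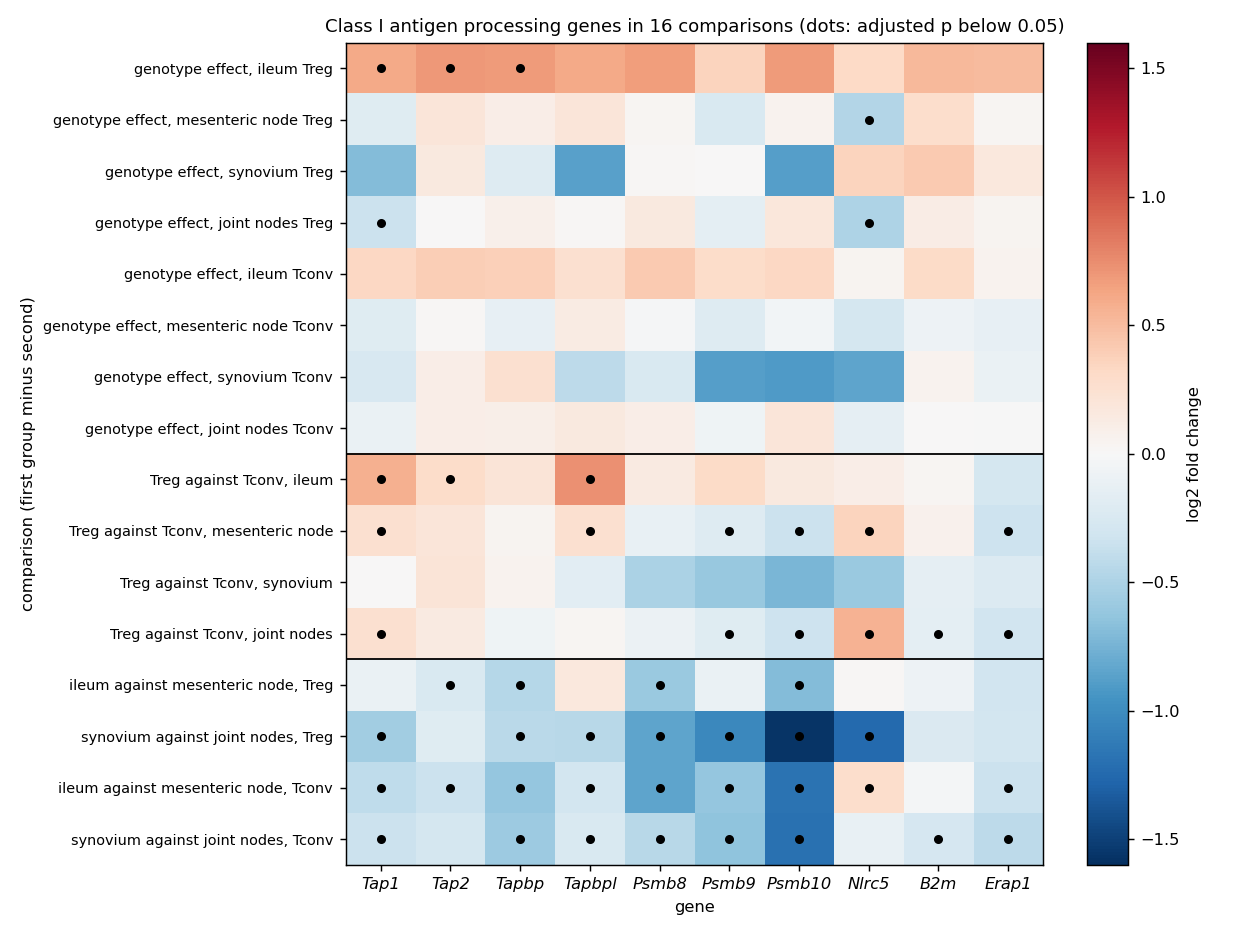
Heat map of log2 fold changes of the 10 members (columns) in 16 comparisons (rows; first group minus second), with a dot where the adjusted p was below 0.05. The ileal Treg row is red throughout (0.32 to 0.69), and the Psmb10 column is blue in all 4 tissue-against-node rows (−1.57 to −0.70).

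Each immunoproteasome subunit was set against the constitutive subunit it replaces, as a ratio of CPM per kb in the same library. Psmb8 over Psmb5 was 2.76 ± 0.0987 in TNFdARE ileal Treg (2.69 to 2.87) and 1.93 ± 0.102 in WT (1.81 to 2.01). The groups did not overlap, and the TNFdARE mean was the highest of the 16 groups. In synovial Treg the ratio was 1.52 ± 0.333 in TNFdARE and 1.51 ± 0.0481 in WT. Psmb9 over Psmb6 was 0.806 ± 0.106 against 0.724 ± 0.0613 in ileal Treg, with overlap. In Treg of the nodes it was lower in TNFdARE without overlap, 0.684 ± 0.00816 against 0.907 ± 0.0148 in the mesenteric node and 0.667 ± 0.0204 against 0.899 ± 0.0678 in the joint nodes. Psmb10 over Psmb7 was 4.28 ± 0.282 against 3.39 ± 0.536 in ileal Treg and 1.31 ± 0.518 against 2.78 ± 0.173 in synovial Treg, and reached 7.89 ± 0.285 in WT mesenteric Tconv. These ratios were described and not tested, and their absolute size depends on the annotated exon lengths.

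**Figure D5:**
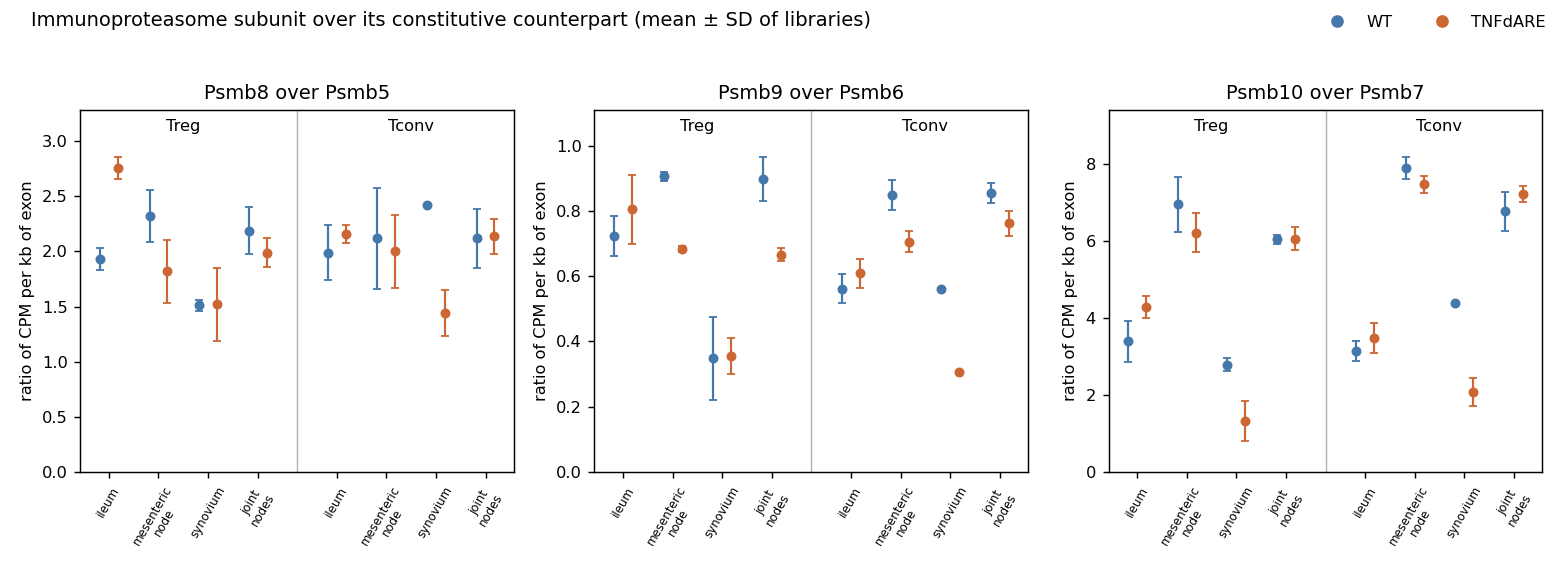
Ratio of each immunoproteasome subunit to its constitutive counterpart (CPM per kb of exon; points are group means, bars are SD over libraries, axes start at 0) by cell type, site and genotype. Psmb8 over Psmb5 is highest in TNFdARE ileal Treg (2.76), and Psmb10 over Psmb7 is lowest in TNFdARE synovial Treg (1.31).

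Across the 16 group means of log2 CPM, all 45 pairs of members had a positive Pearson r, from 0.21 (Tapbpl and Erap1) to 0.92 (Psmb9 and Psmb10) with a median of 0.61. The groups share experiments and libraries share a scaling, so these are descriptions. Psmb8 and Psmb10 had r = 0.91, Tapbp and Psmb8 0.88, and Tap1 and Tapbpl 0.85. Nlrc5 was closest to Psmb9 (0.74) and had 0.27 with Tap2. Tap1 and Psmb9, which share their promoter stretch, had 0.65. Among 8349 other genes, those most like the mean member profile were Psme2 (r = 0.94), Tgtp2 (0.93), Tgtp1 (0.91), Idnk (0.91) and Psme1 (0.91). Psme1 and Psme2 encode the interferon-inducible activator of the proteasome, and Tgtp1 and Tgtp2 are near-identical interferon-inducible GTPase genes whose reads may be split between them.

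Other genes of the pathway were taken from lists. Among the regulators of class I promoters, Irf2 rose in ileal Treg (log2 fold change 0.66 ± 0.10, adjusted p = 0.015) and Nfkb1 in joint-node Tconv (0.36 ± 0.09, 0.04). None of 7 class I heavy chains passed in ileal Treg, with a median of 0.31. H2-T23 fell in joint-node Treg (−0.41 ± 0.07, 0.0043) and mesenteric Tconv (−0.49 ± 0.10, 0.028), and H2-Q6 rose in joint-node Tconv (0.50 ± 0.08, 0.0024). The heavy chains are close copies of each other, so their values are uncertain. Of 14 constitutive proteasome genes none passed in ileal Treg (median 0.12). In joint-node Treg 3 rose, Psmb2 (0.34 ± 0.07, 0.017), Psma2 (0.38 ± 0.09, 0.022) and Psmb6 (0.27 ± 0.07, 0.05 after rounding up from just below the threshold), the last being the denominator of the Psmb9 ratio. None of 4 proteasome activator genes passed in the 8 comparisons of genotype within a site, with a median of 0.30 in ileal Treg. In the ileum-against-synovium interaction in Tconv, which uses the single WT synovial library, Psme1 passed (0.95 ± 0.22, adjusted p = 0.029). Of 8 loading and trimming partners 2 rose in mesenteric Treg, the chaperone gene Calr (0.37 ± 0.09, 0.03) and Ide (0.41 ± 0.11, 0.047), and 0 of 8 passed in ileal Treg (median 0.15).

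Most type I interferon-induced genes on the list fell in the nodes in both cell types. Of 6 genes of the interferon-gamma receptor pathway none passed between genotypes within ileum or synovium in either cell type. The ileum-against-synovium interaction in Tconv uses the single WT synovial library with its high CD8 T or NK cell markers. For this interaction only effect sizes of the interferon lists are given. Their calls are left out because of that single library, which does not mean that no gene passed. There the 6 genes ran from −0.93 (Socs1) to 2.96 (Ifng) on the log2 scale, with a median of 0.35. The type I list had a median of 0.99 there, with Isg15 at 1.59 and Irf7 at 1.34. Only Oas2 had a negative value (−2.72), but its SE was 2771.56, so it gives no direction. The SEs of the other genes on this list reached 1.45 (Usp18), so the median is uncertain as well. In mesenteric Treg Ifngr1 rose (0.89 ± 0.14, adjusted p = 0.0026) and Socs1 fell (−0.39 ± 0.09, 0.019), while Socs1 rose in Tconv of the mesenteric node (0.45 ± 0.08, 0.014) and of the joint nodes (0.32 ± 0.08, 0.04). In node Treg the type I list had 10 of 10 genes lower in the mesenteric node (median −2.64; Oas2 −3.66 ± 0.46, 0.00079) and 10 of 10 in the joint nodes (median −1.96; Usp18 −1.64 ± 0.12, 3.8e-06), against 1.84% and 2.34% of all genes called lower. In node Tconv 9 of 10 were lower in the mesenteric node (median −2.12) and 7 of 10 in the joint nodes (median −1.43), against 0.574% and 0.504% of all genes. In ileal Treg 1 of 10 fell, Usp18 (−1.77 ± 0.31, 0.027), against 0.245% of all genes called lower, and the median was −0.76. In ileal Tconv 2 of 10 fell, Usp18 (−1.80 ± 0.31, 0.015) and Irf7 (−0.62 ± 0.13, 0.048), against 0.138% of all genes called lower, and the median was −1.12. Whether these genes and the members answer the same signal was not tested. In the synovium 9 were tested and none passed in either cell type. Of 7 MHC class II genes none passed in the ileum, and Cd74, the invariant chain, rose in Treg of the mesenteric node (2.47 ± 0.16, 2.4e-05), of the synovium (1.93 ± 0.20, 0.034) and of the joint nodes (1.55 ± 0.14, 2.2e-05).

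Because 5 members lie near Tnf, the tested genes of chromosome 17 within 2 Mb of its start were counted without the members. In ileal Treg 3 of 154 were called higher, 1.95% against 0.484% of all genes, and 0 lower. In ileal Tconv 4 of 154 were higher, 2.6% against 1.17% of all genes, and 0 lower. In mesenteric Treg 10 of 150 were higher and 4 lower, with 3.84% and 1.84% over all genes, and in mesenteric Tconv 5 and 3, with 1.79% and 0.574%. In joint-node Treg 9 of 144 were higher and 8 lower, with 3.36% and 2.34% over all genes, and in joint-node Tconv 7 and 1, with 2.29% and 0.504%. In synovial Treg and Tconv edgeR called 0 of 173, against 0.156% and 0.512% of all genes. Tnf itself had a log2 fold change of 0.74 ± 0.18 (adjusted p = 0.1) in ileal Treg and rose in mesenteric Treg (1.17 ± 0.28, 0.031). Position near the altered allele and the effect of the allele cannot be told apart for these 5 members in this design.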

How the data were processed

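RNA was isolated with a column kit and 100 pg or 2 ng entered SMART-Seq v4 PLUS cDNA synthesis and single-read sequencing, per the labels' protocols; the amount used for a given library is not given in the sources used here. The submitters' processing notes name cutadapt 1.15, Bowtie2 2.3.3.1 and GRCm38; the counting program, its use of strand and the annotation are not given in the sources used here. The authors deposited raw gene counts, which were tested as deposited, and FPKM values for 18964 genes, which the authors normalised by length and depth and which were not tested. Every library column was matched to its sample by description, and no row was without a gene.

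Symbols matched 46005 identifiers. Tests used edgeR 4.0.16 (R 4.3.3): TMM factors, filterByExpr, 1 mean per group, the quasi-likelihood F test and Benjamini-Hochberg adjustment over all genes tested, with a call below 0.05. Each site was fitted with both cell types; tissue against node and the interactions were fitted per cell type over both sites. CPM used TMM factors of all 42 libraries, and log2 CPM a prior count of 2. The standard error is the fold change over the root of F. The test was run on counts simulated for the ileum fit, with the same spread for every gene and no effect of experiment or of other cell types. That run does not tell how often the test errs on these libraries. No pair of libraries was identical. P-values measure the spread between libraries, whose animals are not stated, and counts without molecular identifiers are not independent molecules.

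The members and lists were chosen with earlier results of these data known. Named genes were all members, Tnf and Foxp3, up to 3 genes per list and genotype comparison with the smallest adjusted p, and the 5 genes most like the members over 16 groups. A gene that this rule named is not reported here.

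The experiment letter marks independent experiments, per the labels. Deviations from group means, over genes, had r from −0.51 to 0.45 between TNFdARE and WT libraries of a letter, above 0.1 in 8 of 18 pairs. The letter was used as an additive replicate block in an alternative. Other alternatives were RLE factors, no filter beyond 1 count, DESeq2 1.42.0, limma 3.58.1 voom with quality weights, and all 42 libraries in 1 fit. Further ones were only the 2 groups compared, both experiment A ileal Treg libraries left out, and each library left out in turn. The sample-sheet pass (sheet numbers up to 32 against 33 and above) was used as a covariate. No label names such a pass, and the split was set from the numbers alone.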

Additional observations from a re-analysis of the deposited data

Results flagged for a closer look

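The genotype effect differed between ileum and synovium by a test of the difference itself for Tap1 in Treg, by 1.33 on the log2 scale. Tap1 was higher in TNFdARE in 3 of 3 ileal libraries and lower in 3 of 3 synovial libraries, relative to every WT library of its site. The replicate block ended the call (adjusted p = 0.12), as did 10 of 11 omissions of a single library. The WT synovial Treg libraries held 13000 and 16000 CPM of the 5 fibroblast markers, against 1440 to 6100 CPM in TNFdARE. Their 6 myeloid markers, 1 at 0 in both, summed to 3.16 and 299 CPM, against 0.0461 to 7.04 CPM in TNFdARE. In Tconv the same test passed for Psmb9 (1.24), Psmb10 (1.3) and Tap1 (0.65). For these 3 genes both TNFdARE synovial libraries were below the single WT synovial Tconv library. The test uses that same library, so this order is not separate support. Its summed CD8 T or NK cell markers were 931 CPM, against 32.8 and 86.1 CPM in TNFdARE. The spread of that lone library is taken from the other groups, and the difference has no value without it. No group held more than 3 libraries, so no test for a library far from its group was made.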

How the results depend on the processing

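Counts of the 10 members called are given per setting. In ileal Treg, where 3 were called, DESeq2 and the fit of all 42 libraries called 6, limma voom and the fit of only the 2 groups 0, and the omission of both experiment A libraries left 1. In ileal Tconv, where edgeR called 0, the count was 1 with RLE factors, the replicate block, the sample-sheet pass, all 42 libraries or only the 2 groups, 3 with DESeq2 and 4 with limma voom. In mesenteric Treg (1) it was 2 with DESeq2 or the block and 0 with all 42 libraries, which also gave 0 in joint-node Treg (2). In synovial Treg (0) DESeq2 called 2 and all 42 libraries 4, and in synovial Tconv (0) all 42 libraries called 3. For Treg against Tconv, DESeq2 called 5 in the ileum (3), and all 42 libraries called 1 in the mesenteric node (6), 4 in the synovium (0) and 2 in the joint nodes (6). For synovial against joint-node Tconv (8) the sample-sheet pass left 4. The ileum-against-synovium interaction in Treg (1) had 0 without the filter, with limma voom, the block, the sample-sheet pass or without the experiment A ileal libraries, 4 with DESeq2 and 5 with all 42 libraries. In Tconv (3) it had 5 with DESeq2, the block or the sample-sheet pass and 1 with limma voom. The cause of these changes was not tested. The replicate block changed no other count by more than 1.5 times.

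With each library left out in turn the counts ran from 1 to 4 in ileal Treg, 0 to 2 in mesenteric Treg, 1 to 4 in joint-node Treg, 2 to 5 for Treg against Tconv in the ileum, 0 to 2 for the interaction in Treg and 1 to 5 in Tconv. In the other genotype comparisons and in synovial Treg against Tconv they stayed at 0. No called member changed sign in any setting run. RLE factors moved the members' log2 fold changes by at most 0.095. The omission of the 2 joint-node Tconv libraries with the most genes was chosen after seeing the data and kept each count it was run on within 1.5 times. The sample-sheet pass could not be estimated for ileal against mesenteric Tconv, and comparisons that need WT synovial Tconv have no value without its library. Groups of 1 to 3 libraries limit what the tests can call.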
